A study of Mus musculus with 4 samples.

Results

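The 46 genes described here are mitosis and spindle genes: the regulators, kinases, kinetochore proteins, motors and cytokinesis factors with which a cell divides its chromosomes. They were chosen by name, and each of the 46 symbols matched 1 row of the 38087 genes in the deposited read table. The study profiled cervical lymph nodes or cervical lymphomas of C57BL/6 mice at postnatal week 20 by ribosomal-RNA-depleted RNA sequencing on an Ion Torrent instrument. WT samples (genotype wild type, 2 libraries) are described as control nodes, and Becn1-M-KO samples (genotype Becn1 KO, here KO, 2 libraries) as B cell lymphomas of mice that lack Becn1, the gene of the autophagy protein Beclin-1, in myeloid cells. The driver of the deletion is not given in the sources used here, and no label states whether the 2 libraries of a group derive from 2 animals. The p-values therefore measure the spread between these libraries alone, which may be technical. Genotype and tumour cannot be told apart.

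Cells make most of these proteins only in the G2 and M phases. Cyclin B and CDK1 drive entry into mitosis, Polo-like and Aurora kinases build the spindle, the spindle checkpoint delays chromosome separation until every kinetochore holds microtubules, and the anaphase-promoting complex then destroys securin and cyclin B. In a resting lymph node few cells divide, outside germinal centres and immune responses, and the Ki-67 protein encoded by Mki67 is the usual marker of dividing cells in lymphoma pathology.

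The libraries held 15604247 to 20067004 reads. WT replicate 1 stood apart: reads of a 12-gene pan-leukocyte list summed to 198 CPM of the library total (counts scaled to a common library size), where WT replicate 2 had 3844 and the KO libraries 6554 and 6302. Reads of 19 salivary and other epithelial genes made up 390311 and 138032 CPM of the total in WT and 127 and 3839 in KO; all 19 were detected in both WT libraries, and all but Krt8, Aqp5 and Cldn3 in KO replicate 1. The 16 rows of the pan-B cell list summed to 56.3 and 2480 CPM of the total in WT and 3667 and 3572 in KO, and those of 16 T cell genes to 17.1 and 1272 in WT and 987 and 975 in KO, with no gene of either list at 0 in any library. Reads of Xist, which is transcribed from the inactive X chromosome, numbered 2088 and 5314 (WT) and 3 and 34 (KO), so sex and genotype also cannot be told apart. Becn1 itself stood at 54.8 and 63.4 (WT) against 49.5 and 53.3 CPM (KO) after scaling, a log2 fold change of −0.20 (SE 0.21, edgeR adjusted p = 0.557); whole tissue does not check a deletion confined to myeloid cells. The part of cell composition and of sex in the results was not tested, and in whole tissue fewer dividing cells and less RNA per cell cannot be told apart.

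Mitosis and spindle genes were most abundant in the KO libraries. The 46 genes together took 91.2 and 503 of these CPM in WT replicates 1 and 2, and 1211 and 1279 in KO replicates 1 and 2. After TMM scaling, which adjusts library sizes for differences in composition, the sums were 178 and 429 (WT) against 951 and 989 CPM (KO). The KO pair lay close together and the WT pair did not. With TMM scaling 45 genes were higher in both KO libraries than in both WT libraries, and Pttg1 was lower in both; of all 20695 genes tested, 34.3% were higher and 33.3% lower in this sense. Scaled to the pan-leukocyte reads instead, 10 members were higher in both KO libraries, against 4.52% of all genes tested.

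**Figure D1:**
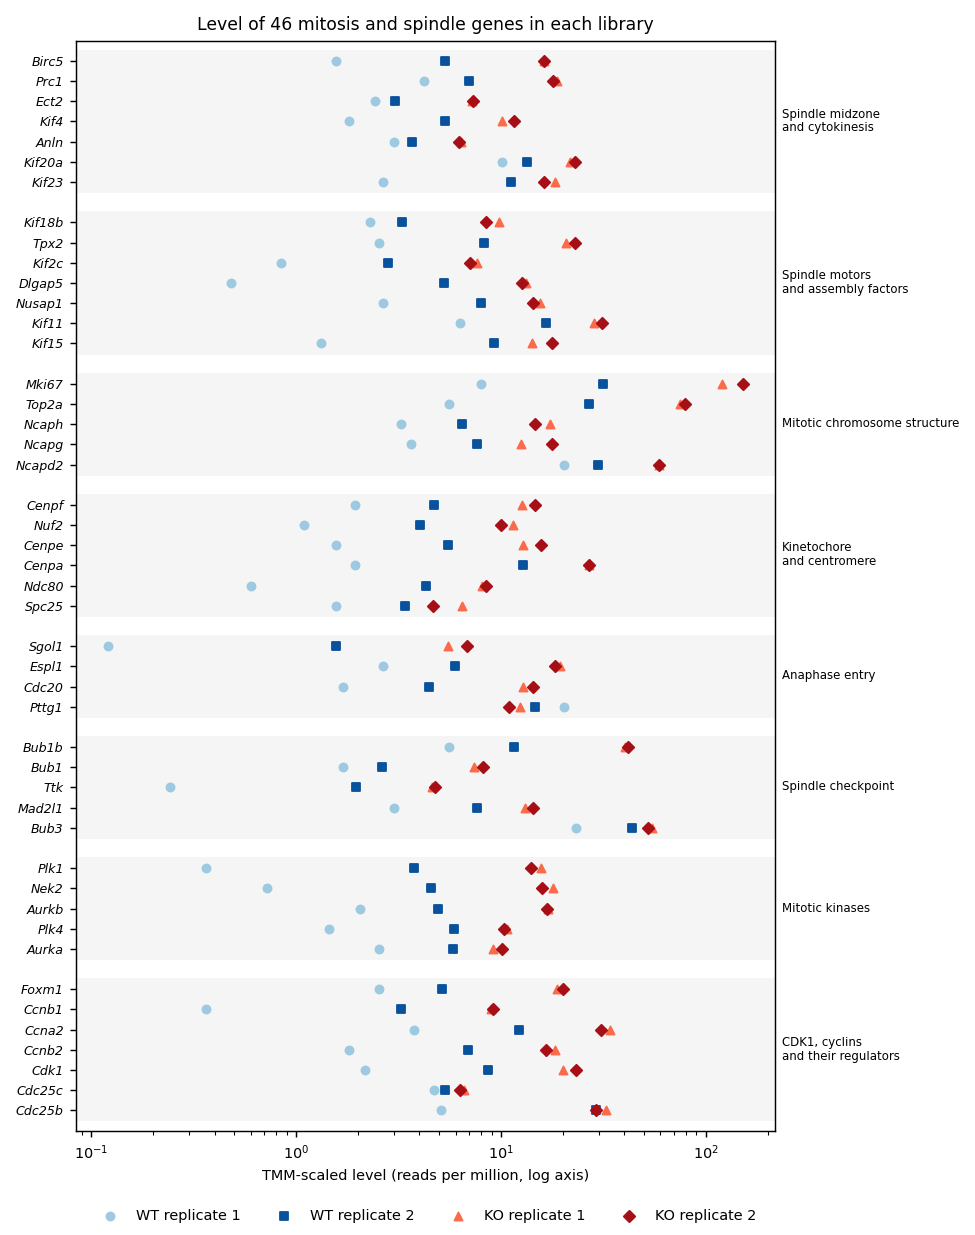
TMM-scaled level of each of the 46 genes in each of the 4 libraries (CPM, log axis), grouped by role; points are single libraries. The KO points lie to the right of both WT points for 45 genes, WT replicate 1 is lowest for the same 45, and Pttg1 shows the opposite order.

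Against both WT libraries together, edgeR's quasi-likelihood test called none of the 46 genes. The 2 groups differed by a median log2 fold change of 1.82 over the members, a fold of 3.54, against a median of 0.01 over all genes tested. The smallest adjusted p was 0.0721, for Foxm1, and 27 members had an unadjusted p under 0.05; of all genes tested, 1.04% were called higher and 2.18% lower, and 10.5% were higher at an unadjusted p under 0.05. DESeq2 called 24 members higher (6.4% of all genes), limma-voom called 0 (1.21%) with 34 at an unadjusted p under 0.05, and edgeR without a count filter called 2, Foxm1 and Bub1b (1.75%). Scaled to pan-leukocyte reads edgeR called 0 (0.0435% of all genes higher, 3.41% lower), and 18 members were above 0; this scaling moved the median of all genes to −2.76. The members' level in WT replicate 2 was 0.719 to 13.0 times that in WT replicate 1, with a median of 2.98. The authors' deposited table, which lists genes with an unadjusted p under 0.05 and is labelled as a moderated t-test, holds 10 of the 46, all higher in KO: Anln, Ect2, Prc1, Ncapd2, Bub1b, Foxm1, Ncaph, Bub1, Cdc20 and Espl1. It lists 6.52% of all genes as higher. Its values run from a log2 fold change of 0.98 for Anln to 2.60 for Foxm1. None of the 46 is in the authors' shorter lists of 86 higher and 71 lower genes.

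Against WT replicate 2, the WT library with more lymphocyte reads (44335 of the pan-B cell list against 908 in WT replicate 1), 42 of the 46 genes rose in KO and 0 fell, where 20.9% of the 21844 genes tested were called higher and 22.8% lower. The median log2 fold change was 1.32, a fold of 2.50, with quartiles of 0.85 and 1.54; the median over all genes was 0.0045. The members not called were Cdc25b, Cdc25c, Spc25 and Pttg1. Scaled to pan-leukocyte reads, which lowers the median of all genes to −0.61, 28 members rose (8.5% of all genes) and Cdc25b, Bub3 and Pttg1 fell (57.6% of all genes), with a member median of 0.71. Against WT replicate 1, 44 members rose (32.3% of all genes), Pttg1 fell (32.5% of all genes) and the median log2 fold change was 2.85; scaled to pan-leukocyte reads this turned, with 1 member higher, Plk1 (3.24% of all genes), and 24 lower (86.6%), a member median of −0.82 and a median of all genes of −3.62. The comparisons share the KO libraries. Rises and falls below are log2 fold changes over WT replicate 2 unless given as folds. Counts by role of genes that rose are to be read beside the shares of all genes given above for that comparison. Each comparison rests on 1 WT library, which is assumed to vary like the KO pair, so the calls say nothing of the spread among WT samples.

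**Figure D2:**
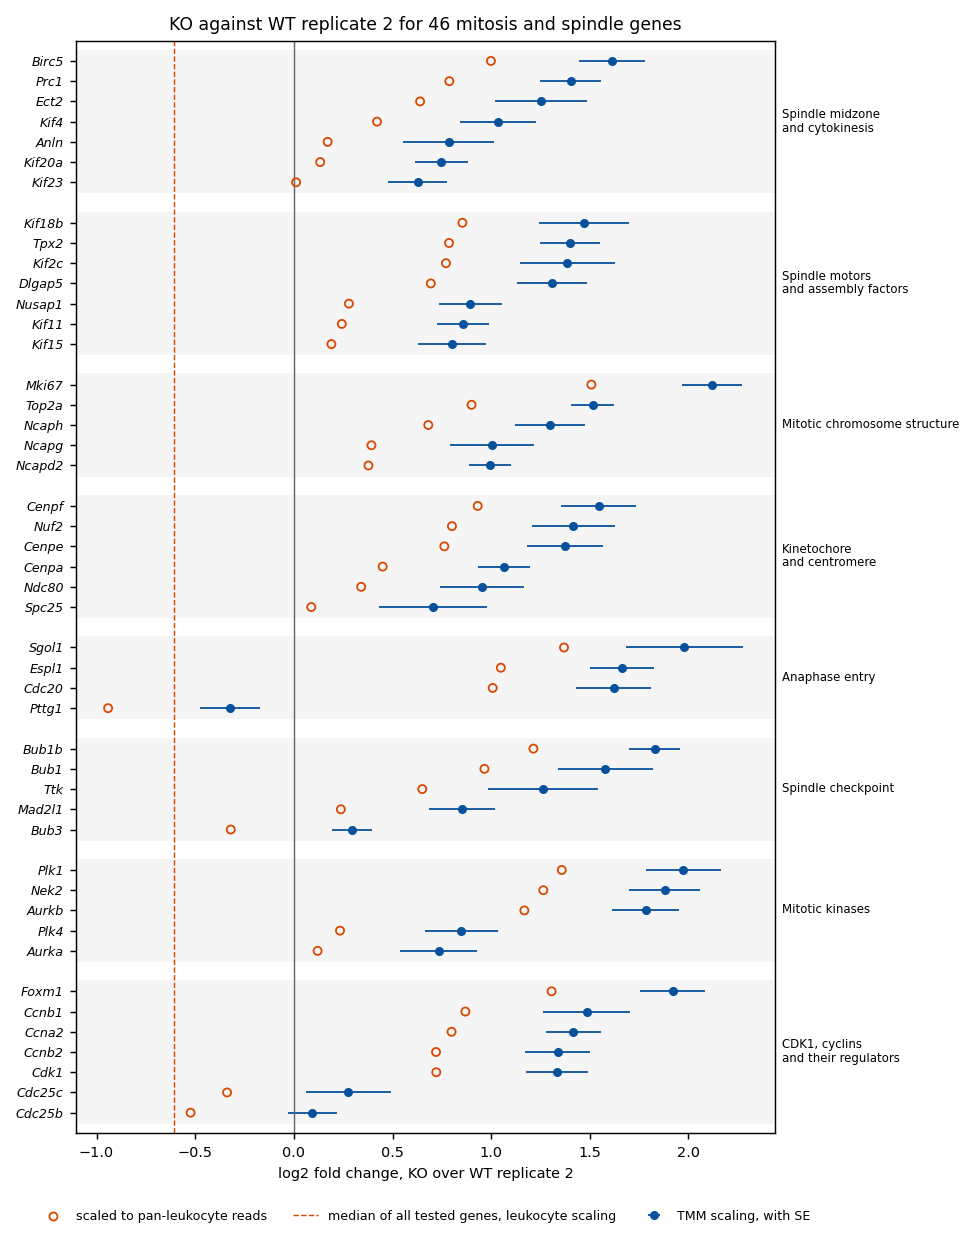
log2 fold change of KO over WT replicate 2 for the 46 genes, grouped by role: filled points with bars are edgeR values with their SE under TMM scaling, open points the values scaled to pan-leukocyte reads. The filled points have a median of 1.32 and only Pttg1 is below 0; the open points lie to the left, with the median of all genes at −0.61 (dashed line).

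Promoter sequence was examined because genes of this kind are known to share elements near their starts: the CCAAT box, which NF-Y binds, and the cell cycle genes homology region (CHR), through which the DREAM and MYB-MuvB complexes repress them in resting cells and activate them in G2. RefSeq windows (GRCm38.p6, from 250 bases before to 50 after the start) were at hand for 39 of the 46 genes. On either strand CCAAT occurred in the windows of 28 members, 71.8%, against 41.1% of 27025 genes. The CHR letters TTTGAA occurred in 26 members, 66.7%, against 20.2% of genes, and CCAAT with TTTGAA in 22 members, 56.4%, against 7.97%. The variant TTTAAA, which is its own reverse complement, occurred in 10 members, 25.6%, against 14.9% of genes. The windows of the members had a median GC content of 59.3%, those of all genes 52.7%. A match is a description of letters and shows no binding. The 250 bases before the start are shown for Mki67 and Top2a, the members with most reads in KO, for Cdk1 and Ccnb1, which encode the kinase and the cyclin that start mitosis, and for Pttg1, the member with values below 0; all are on the minus strand, printed 5′ to 3′, with each match to the 3 motifs, on either strand, in capitals.
Mki67: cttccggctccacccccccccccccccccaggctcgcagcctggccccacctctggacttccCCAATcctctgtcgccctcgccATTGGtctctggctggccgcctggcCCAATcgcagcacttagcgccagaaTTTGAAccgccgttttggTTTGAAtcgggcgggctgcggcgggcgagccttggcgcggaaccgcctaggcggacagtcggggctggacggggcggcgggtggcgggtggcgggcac
Top2a: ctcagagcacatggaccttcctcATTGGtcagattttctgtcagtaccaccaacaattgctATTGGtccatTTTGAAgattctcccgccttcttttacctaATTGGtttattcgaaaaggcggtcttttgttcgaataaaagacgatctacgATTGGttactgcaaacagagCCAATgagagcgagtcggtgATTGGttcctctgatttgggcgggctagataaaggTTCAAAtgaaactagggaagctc
Cdk1: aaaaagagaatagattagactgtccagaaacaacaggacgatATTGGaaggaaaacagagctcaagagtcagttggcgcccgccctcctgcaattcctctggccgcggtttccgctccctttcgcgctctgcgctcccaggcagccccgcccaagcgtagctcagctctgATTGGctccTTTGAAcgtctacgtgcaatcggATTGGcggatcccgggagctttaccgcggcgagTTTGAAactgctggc
Ccnb1: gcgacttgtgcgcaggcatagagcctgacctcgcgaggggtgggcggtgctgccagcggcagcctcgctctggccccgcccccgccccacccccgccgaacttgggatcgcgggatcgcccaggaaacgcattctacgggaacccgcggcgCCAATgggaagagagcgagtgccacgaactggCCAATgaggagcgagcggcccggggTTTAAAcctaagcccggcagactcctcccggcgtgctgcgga
Pttg1: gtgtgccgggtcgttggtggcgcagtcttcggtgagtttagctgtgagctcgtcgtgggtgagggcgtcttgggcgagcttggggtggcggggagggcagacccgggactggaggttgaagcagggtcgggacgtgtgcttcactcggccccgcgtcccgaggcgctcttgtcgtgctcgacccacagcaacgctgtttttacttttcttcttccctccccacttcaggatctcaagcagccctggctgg

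The Mki67 stretch (chr7:135716380-135716629) holds 3 CCAAT and 2 TTTGAA matches, and that of Top2a (chr11:99024190-99024439) holds 6 and 2. Cdk1 (chr10:69352913-69353162) has 3 CCAAT and 2 TTTGAA matches, and Ccnb1 (chr13:100786487-100786736) has 2 CCAAT matches and 1 of TTTAAA. The Pttg1 stretch (chr11:43425982-43426231) holds 0 of either, and so does its whole window. This stretch lies wholly inside the span of Pttg1 in the read table (43420250 to 43426251, minus strand). Sequence before the start of that span was therefore not examined for Pttg1. Nuf2, Mad2l1, Ncaph and Nusap1 also had no match to the 3 motifs, and they rose against WT replicate 2. Over the members, the 55 CCAAT matches had a median position of −58, and the 33 TTTGAA matches one of −15.

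**Figure D3:**
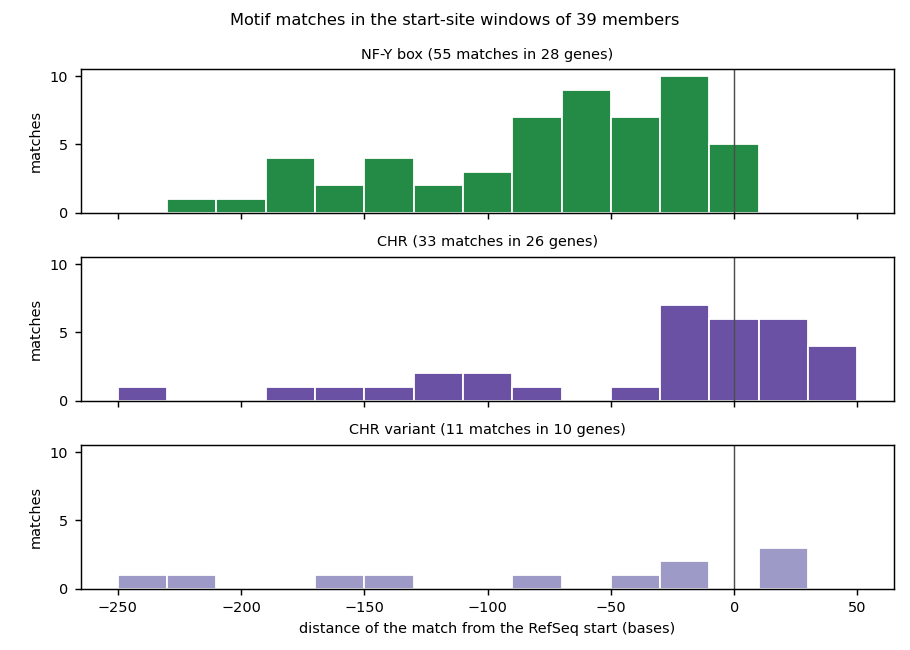
Number of motif matches by distance from the RefSeq start, in equal bins, for the 39 members with a window: NF-Y box (CCAAT), CHR (TTTGAA) and CHR variant (TTTAAA), both strands. CCAAT matches gather upstream with a median at −58, and TTTGAA matches lie closer to the start with a median at −15.

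Among mitotic chromosome genes was the largest difference from WT replicate 2. Mki67, the gene of the Ki-67 antigen that coats mitotic chromosomes (chromosome 7, 135689788 to 135716379), was read 66 and 659 times (WT) and 2390 and 3940 times (KO). Scaled, this was 7.97 and 31.4 (WT) against 120 and 152 CPM (KO), so the groups did not overlap. It rose 4.34-fold over WT replicate 2 (log2 fold change 2.12, SE 0.15, edgeR adjusted p = 3.9e-07); with both WT libraries the value was 2.78 (SE 0.75, adjusted p = 0.123). Mki67 alone made up 4.48% and 7.33% of the members' reads in WT and 12.6% and 15.3% in KO. Top2a, the topoisomerase that untangles sister chromatids, stood at 5.56 and 26.9 (WT) against 74.4 and 78.8 CPM (KO), a rise of 1.52 over WT replicate 2 (SE 0.11, adjusted p = 3.4e-07). The condensin subunit genes Ncapd2, Ncapg and Ncaph rose 1.99-fold, 2.01-fold and 2.46-fold over WT replicate 2. Ncapd2 was the least changed of the group, at 20.3 and 29.8 (WT) against 59.4 and 59.0 CPM (KO) (0.99, SE 0.11, adjusted p = 1.0e-05).

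Among CDK1, the cyclins and their regulators, 5 of 7 genes rose over WT replicate 2, with a median of 1.34. Cdk1, the kinase that starts mitosis, stood at 2.17 and 8.63 (WT) against 20.2 and 23.2 CPM (KO) (1.33, SE 0.16, adjusted p = 2.4e-05). Ccnb1, which encodes cyclin B1, was read 3 and 68 times (WT) and 178 and 237 times (KO). Its rise over WT replicate 2 was 1.48 (SE 0.22, adjusted p = 1.6e-04), and both KO libraries were above both WT libraries. Ccnb2 and Ccna2, the genes of cyclins B2 and A2, rose by 1.34 and 1.42. Foxm1, the transcription factor that switches on G2 genes, rose most in this group, from 2.54 and 5.15 CPM in WT to 18.8 and 20.1 CPM in KO (1.92 over WT replicate 2, SE 0.17, adjusted p = 1.7e-06). The phosphatase genes Cdc25b and Cdc25c, whose products activate CDK1, did not pass the test. Cdc25b had 5.07 and 29.0 (WT) against 32.7 and 29.1 CPM (KO): WT replicate 2 was at the level of KO (0.09, SE 0.12, adjusted p = 0.587), and only WT replicate 1 was low. Cdc25c lay between 4.71 and 6.59 CPM in all 4 libraries (0.28, SE 0.21). The authors' deposited log2 values, centred per gene, differ from this for Cdc25c. They were −3.60 and −0.48 in WT and 0.48 and 0.76 in KO. Its span overlaps that of Gm3550 by 1656 bases, and the cause of the difference was not tested.

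All 5 mitotic kinase genes rose over WT replicate 2, with the highest median of the 8 roles, 1.78. Plk1, the Polo-like kinase of mitotic entry and spindle assembly, was read 3 and 79 times (WT) and 310 and 363 times (KO). It rose by 1.97 over WT replicate 2 (SE 0.19, adjusted p = 4.7e-06), and its scaled ratio to the 3 reads of WT replicate 1 was 40.5 (95% counting interval 13.8 to 197). Nek2, a centrosome kinase gene, rose by 1.88. Aurkb, the kinase of the chromosomal passenger complex, stood at 2.05 and 4.91 (WT) against 17.1 and 16.7 CPM (KO) (1.78, SE 0.17, adjusted p = 3.9e-06). The related Aurka, a spindle pole kinase gene, stood at 2.54 and 5.82 (WT) against 9.15 and 10.1 CPM (KO), and its rise of 0.73 (SE 0.19, adjusted p = 0.0088) was the smallest of the group. Plk4, which controls centriole duplication, rose by 0.85. Scaled to pan-leukocyte reads, Plk1, Nek2 and Aurkb still rose (1.36, 1.26 and 1.17), while Aurka and Plk4 had values of 0.12 and 0.23.

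The 5 spindle checkpoint genes rose over WT replicate 2 to very different degrees. Bub1b, which encodes the checkpoint protein BubR1, stood at 5.56 and 11.5 (WT) against 40.2 and 41.5 CPM (KO). Its rise of 1.83 (SE 0.13, adjusted p = 3.3e-07) had the smallest p of the 46 genes. Bub1, a checkpoint kinase gene, rose by 1.58, and Ttk, which encodes the kinase MPS1, by 1.26; Ttk had 2 reads in WT replicate 1. Mad2l1, whose product restrains the anaphase-promoting complex, rose by 0.85. Bub3, which also serves outside mitosis, stood at 23.3 and 43.8 (WT) against 54.9 and 52.4 CPM (KO). Its rise of 0.30 (SE 0.10, adjusted p = 0.034) was the smallest called, and it turned to a fall of 0.32 scaled to pan-leukocyte reads (adjusted p = 0.021). Bub3 lies within the annotated span of Fgfr2 on the other strand, and whether counting used strand is not given in the sources used here, so reads of these genes may be mixed.

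At anaphase entry, 3 of 4 genes rose and Pttg1 had the lowest value of all 46. Sgol1, the shugoshin that protects centromeric cohesion, was read 1 and 33 times (WT) and 109 and 178 times (KO), a rise of 1.98 over WT replicate 2 (SE 0.30, adjusted p = 1.8e-04). Its scaled ratio to the 1 read of WT replicate 1 was 51.8, with a 95% counting interval from 9.23 to 2055. Cdc20, the activator of the anaphase-promoting complex, and Espl1, the gene of separase, rose by 1.62 and 1.66. Pttg1 encodes securin, the inhibitor of separase. Its reads were 168 and 306 in WT and 245 and 284 in KO, or 20.3 and 14.6 (WT) against 12.3 and 10.9 CPM (KO) after scaling. The values were −0.33 against WT replicate 2 (SE 0.15, adjusted p = 0.106) and −0.58 against both WT libraries (SE 0.27, adjusted p = 0.262); by library totals alone the latter was 0.11. Pttg1 was −0.82 against WT replicate 1 and, scaled to pan-leukocyte reads, −0.94 against WT replicate 2, the falls called above. Reads within a library need no scaling: there were 0.393 and 2.15 reads of Mki67 per Pttg1 read in WT, and 9.76 and 13.9 in KO.

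Of 6 kinetochore and centromere genes, 5 rose over WT replicate 2, with a median of 1.22. Cenpf, a large outer kinetochore protein gene, stood at 1.93 and 4.72 (WT) against 12.7 and 14.7 CPM (KO) (1.54, SE 0.19, adjusted p = 3.8e-05). Cenpe, a kinetochore motor, rose by 1.37, and Cenpa, the centromeric histone H3 variant, by 1.07. The NDC80 complex binds microtubules and is represented by Ndc80, Nuf2 and Spc25. Ndc80 and Nuf2 rose by 0.95 and 1.42. Spc25 had 1.57 and 3.39 (WT) against 6.44 and 4.66 CPM (KO), and its value of 0.71 missed the threshold (SE 0.27, adjusted p = 0.057). Of the 46 genes Spc25 had the lowest ratio of KO replicate 2 to KO replicate 1, 0.724.

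All 7 spindle motor and assembly genes rose over WT replicate 2, within a narrow range of 0.80 to 1.47. Kif18b, a microtubule-end kinesin gene, had the largest value, at 2.29 and 3.29 (WT) against 9.81 and 8.44 CPM (KO) (1.47, SE 0.23, adjusted p = 2.4e-04); its span lies within that of the long non-coding gene AL731670.1 on the other strand. Tpx2, the activator of Aurora A on the spindle, rose by 1.40. Kif2c, a microtubule-depolymerising kinesin, rose by 1.39, and Dlgap5 and Nusap1, which bind spindle microtubules, by 1.31 and 0.89. Kif11 and Kif15, kinesins that push the spindle poles apart, rose by 0.86 and 0.80. Kif15 stood at 1.33 and 9.21 (WT) against 14.2 and 17.6 CPM (KO) (SE 0.17, adjusted p = 0.0026).

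The 7 midzone and cytokinesis genes also all rose over WT replicate 2, with the lowest median of the roles, 1.03. Birc5, which encodes survivin, the partner of Aurora B in the passenger complex, stood at 1.57 and 5.34 (WT) against 16.3 and 16.3 CPM (KO) (1.61, SE 0.17, adjusted p = 8.3e-06). Prc1, the bundler of midzone microtubules, rose by 1.40, Ect2, which activates RhoA at the cleavage site, by 1.25, and the kinesin gene Kif4, which lies on the X chromosome, by 1.03. Anln, the gene of the scaffold protein anillin, Kif20a and Kif23 had rises of 0.79, 0.75 and 0.63. Kif23, a subunit of centralspindlin, stood at 2.66 and 11.2 (WT) against 18.3 and 16.2 CPM (KO) (SE 0.15, adjusted p = 0.0052), and scaled to pan-leukocyte reads its value was 0.01. Within KO, the TMM-scaled ratio of replicate 2 to replicate 1 had a median of 1.0 over the 46 genes, a lowest value of 0.724 and a highest of 1.43 (Ncapg), and for 9 genes its 95% counting interval left out 1.

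Ratios to other gene lists within each library carry no scaling between libraries. Per 1000 pan-leukocyte reads there were 460 and 131 member reads in WT and 185 and 203 in KO. Per 1000 pan-B cell reads there were 1621 and 203 in WT and 330 and 358 in KO. KO thus exceeded WT replicate 2 by 1.41 and 1.55 times per leukocyte read and by 1.63 and 1.77 times per B cell read, while WT replicate 1, with the fewest leukocyte reads, was highest by both. Per 1000 reads of 10 germinal centre B cell genes the numbers were 2214 and 4035 in WT and 6202 and 6249 in KO, with 1 of the 10, Gcsam, at 0 reads in WT replicate 1. Without Mki67 and Top2a the mean of the KO libraries over WT replicate 2 changed from 1.48 to 1.34 per leukocyte read, from 1.70 to 1.53 per B cell read and from 1.54 to 1.39 per germinal centre read. These ratios are descriptions and were not tested. They depend on the lists, whose genes also differed from WT replicate 2. Pan-leukocyte genes ran from 0.03 to 1.90 and pan-B cell genes from −2.01 to 1.21. In WT replicate 1 Lcp1, named after its values were seen, held 1378 of the 3203 pan-leukocyte reads.

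**Figure D4:**
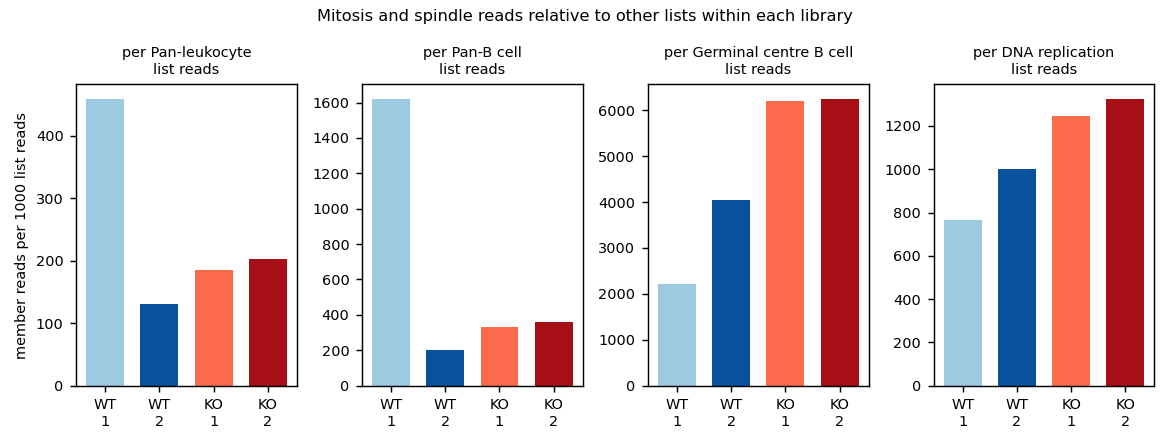
Reads of the 46 genes per 1000 reads of the pan-leukocyte, pan-B cell, germinal centre B cell and DNA replication lists, 1 bar per library. KO bars are above WT replicate 2 in every panel; WT replicate 1 is highest per leukocyte (460) and per B cell read (1621) and lowest per germinal centre and DNA replication read.

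Other parts of the cell cycle were read from further lists. Of all genes, 20.9% were called higher and 22.8% lower over WT replicate 2. Scaled to pan-leukocyte reads these shares were 8.5% and 57.6%. Of 49 matched mitosis genes outside the 46, 42 rose and 0 fell over WT replicate 2, with a median of 1.16; scaled to pan-leukocyte reads, 24 rose and 3 fell. They include Mybl2, the B-MYB subunit of the complex that acts at CHR elements, which rose by 1.87 (SE 0.18) from 2.05 and 3.96 CPM in WT to 14.4 and 14.4 CPM in KO, and Ckap2l and Kntc1 (1.40 and 1.34). Of 25 DNA replication genes 21 rose and 0 fell, with a median of 0.81 (11 and 0 scaled to pan-leukocyte reads), led by Rrm2, a ribonucleotide reductase subunit gene, at 2.11. Members had 767 and 1001 reads per 1000 DNA replication reads in WT and 1245 and 1325 in KO. The 20 subunit genes of the anaphase-promoting complex and cohesin, which serve throughout the cell cycle, had a median of 0.06, with 1 rise and 4 falls (0 and 18 scaled to pan-leukocyte reads). Of 8 genes of G1 cyclins and their CDKs, 3 rose and 1 fell, with a median of 0.28 (0 and 4 scaled to pan-leukocyte reads); the cyclin E1 gene Ccne1 rose by 0.74 (SE 0.16), and the 1 that fell, chosen after its value was seen, was the cyclin D3 gene Ccnd3, by 1.05 (SE 0.11). Against both WT libraries edgeR called 0 genes in each of these 4 lists, where 1.04% of all genes were called higher and 2.18% lower.

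Genes of CDK inhibitors, which restrain division, moved in both directions. The shares of all genes called are again 20.9% higher and 22.8% lower over WT replicate 2, and 8.5% and 57.6% scaled to pan-leukocyte reads. Over WT replicate 2, 4 of 7 rose and 1 fell, and scaled to pan-leukocyte reads 2 rose and 2 fell. Cdkn1a, the p53-induced inhibitor p21, passed the test against both WT libraries (2.41, SE 0.295, edgeR adjusted p = 0.0483), from 10.4 and 15.3 CPM in WT to 74.6 and 62.7 CPM in KO. Cdkn1c, which encodes p57, fell by 3.16 (SE 0.38, adjusted p = 0.0475), from 6.04 and 4.77 CPM to 0.654 and 0.539 CPM. With the replicate number as a block the adjusted p was 0.073 for Cdkn1a and 0.079 for Cdkn1c, and by library totals alone 0.149 and 0.172; by totals without genes over 0.5% of any library it was 0.056 for Cdkn1a. Scaled to pan-leukocyte reads Cdkn1a turned to −0.19 (adjusted p = 0.931) and Cdkn1c was −6.12 (adjusted p = 0.070), and with either KO library left out no call held (adjusted p from 0.348 to 0.431). Cdkn2a, the locus of p16 and p19ARF, had a value of 2.83 against both WT libraries (SE 0.44) and missed the threshold there, and rose by 2.46 over WT replicate 2 (SE 0.20).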

How the data were processed

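RNA was measured in 2 WT and 2 KO libraries, with totals of 15604247 to 20067004 reads. The authors deposited whole-number read counts per gene, which the file headers call reads. Aligner and counter: not given in the sources used here. Per the submitters' processing notes, mm10 was a build and DESeq2 1.62 a tool, neither with a role. The listed length equals the genomic span for all 38087 genes, so intronic reads may be counted, and 12 members overlap another gene. The authors also deposited log2 values centred per gene, in which 45 members are higher in both KO libraries than in both WT libraries. Their deposited comparison gives a log2 fold change, an absolute fold ratio and an unadjusted p-value, per the file headers. A further 8 columns of coverage per library were not used here.

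The test was edgeR 4.0.16's quasi-likelihood test (R 4.3.3; TMM scaling, genes kept by filterByExpr at 10 reads, 15 in all; every one of the 46 members passed). p-values were adjusted over all tested genes (Benjamini-Hochberg, threshold 0.05). Each SE was derived from the log2 fold change and its F statistic (their quotient, after a square root of F). Alternatives used DESeq2 1.42.0, limma-voom (limma 3.58.1), other scalings and filters, a replicate block and each library left out. Intervals (95%, exact) cover counting error only. Replicates differed by more than sampling noise (chi-square per degree of freedom 733 for WT, 11.9 for KO).

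Sgol1 was matched to its RefSeq symbol Sgo1. Members and gene lists were chosen with earlier results of these data known. Every member may be named; values in each library are given for Mki67, Top2a, Cdk1, Ccnb1, Aurkb, Plk1, Birc5, Foxm1, Bub1b and, in each role, the members with the largest and smallest change over WT replicate 2. Of other lists, up to 3 genes with the smallest p are named. The range and the authors' log2 values of Cdc25c were added after its values were seen. Plasma cell, monocyte and macrophage, neutrophil and erythroid lists summed to 917 and 1544, 206 and 1654, 4.27 and 33.1, and 652 and 490 CPM of the total in WT replicates 1 and 2, and to 3023 and 3141, 3006 and 2862, 93.2 and 105, and 124 and 90.4 in KO replicates 1 and 2. Igj, named after its values were seen, held 112 and 2788 of the 14800 and 27601 plasma cell list reads in WT. In KO it held 25185 and 35062 of 47169 and 63039. Over WT replicate 2, log2 fold changes were above 0 for 6 of 10 plasma cell genes and 10 of 15 monocyte and macrophage genes. In WT replicate 1, 6 of 12 neutrophil genes were at 0 reads (S100a8, S100a9, Ly6g, Elane, Camp and Retnlg).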

Additional observations from a re-analysis of the deposited data

How the results depend on the processing

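The number of members called against both WT libraries depended on the WT pair. Leaving out 1 library gave 0 to 44 called higher: 42 without WT replicate 1, 44 without WT replicate 2 and 0 with either KO library left out. The share of all genes called higher also grew when either WT library was left out, as given with the results above. Over the fits with 1 library left out, the median of the members ran from 1.32 to 2.85. DESeq2 gave 24, no count filter 2, and the other scalings, the stricter filter and limma-voom 0. With a replicate block 0 were called, with a median of 2.13. Crossed pairing was added after seeing the data, because deviations of same-numbered libraries had a weak negative correlation (r = −0.108 across 20695 genes). It also gave 0. The labels do not say that numbers pair samples.

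Scaling to pan-leukocyte reads turned the median to −0.14 against both WT libraries and −0.82 against WT replicate 1 (1 called higher there), and gave 0.71 against WT replicate 2 and 10 members above both WT libraries. With library totals the medians were 1.45 against WT replicate 2 and 4.19 against WT replicate 1, and without genes over 0.5% of any library 1.22 and 3.05. The other alternatives against a single WT library moved the medians by less than the KO replicate spread. Against WT replicate 2 and with 1 KO library left out, medians were 1.28 and 1.29, with no test.

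Under pan-leukocyte scaling 18 of the 46 members were above 0 against both WT libraries, 10 against WT replicate 1 and 42 against WT replicate 2, where 45 were with TMM. Pttg1, below 0 with either scaling, was −3.61 against both WT libraries, −4.50 against WT replicate 1 and −0.94 against WT replicate 2. The values below are only those that turned from above 0 to below 0, among members with values given in each library. Against both WT libraries they were Foxm1 −0.025, Bub1b −0.11, Cdc25b −0.83, Aurka −1.08, Bub3 −1.78, Cenpf −0.18, Spc25 −1.14, Ncapd2 −1.37, Kif18b −0.87 and Kif23 −0.56, and for Cdkn1a, no member, −0.19. Against WT replicate 1 they were Cdk1 −0.37, Aurkb −0.65, Birc5 −0.32, Foxm1 −0.75, Bub1b −0.81, Cdc25b −1.09, Aurka −1.76, Bub3 −2.49, Cenpf −0.86, Spc25 −1.88, Ncapd2 −2.15, Kif15 −0.10, Kif18b −1.71 and Kif23 −1.0. Against WT replicate 2 they were Cdc25b −0.52 and Bub3 −0.32 (and, outside that choice, Cdc25c −0.34), and Cdc25b was −0.0074 by totals without genes over 0.5% of any library. By library totals alone Pttg1 turned to 0.11 against both WT libraries and 0.52 against WT replicate 1. Cdkn1a and Cdkn1c, tried under these settings after seeing the data, are given with their results. The cause was not tested. Counts of 1 to 4 reads in WT replicate 1 limit the values of Sgol1, Ttk, Ccnb1, Plk1 and Dlgap5.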
